A study of Mus musculus with 6 samples.

Results

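The Notch ligand, receptor and target genes described here are 10 genes: the ligands Dll4 and Jag1, the receptors Notch1, Notch2, Notch3 and Notch4, and the transcriptional targets Hes1, Hey1, Hey2 and Heyl. They were taken by gene name from a table of 57010 genes, and all 10 were among the 14799 genes with enough counts to be tested. The 10 genes had been chosen from a larger pathway with their differences between the groups compared here already known. Their differences are therefore given as a description, with no p-value, and tests are reported only for other genes. The lists of those other genes were also written with earlier results of these data known. Primary neonatal mouse cardiomyocytes (NMCMs) were kept under hypoxia (HO) and received either vehicle (HO + Vehicle, libraries V1 to V3) or the plant sterol β-sitosterol (HO + β-SITO, libraries T4 to T6), with 3 RNA-seq libraries in each group. Per the study's methods, the cells came from neonatal C57BL/6 mice, and fibroblasts were separated off by letting them adhere first. The dose and duration for these libraries, and whether the libraries came from separate cultures, are not stated in the sources used here, so the spread given below may be technical. No normoxic library was used here, so all values are from hypoxic cells.

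Notch signaling passes between touching cells. A ligand of the Delta-like or Jagged family on one cell binds a Notch receptor on its neighbour, after which an ADAM protease and then γ-secretase cut the receptor and free its intracellular domain. This domain enters the nucleus, joins the DNA-binding protein RBPJ and a Mastermind-like coactivator, and switches on genes of the HES and HEY families, which encode repressors of transcription. In the heart and its vessels, Dll4, Notch1 and Notch4 are known from endothelial cells, Notch3 and Heyl from pericytes and smooth muscle, and Hey2 from ventricular myocardium.

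The libraries held 16694734 to 18460522 counts, without a gap between the groups. Levels are given as counts scaled to the size of the library (CPM) after TMM normalization, which corrects for differences in library composition. Differences are given as the log2 fold change (log2FC) of HO + β-SITO over HO + Vehicle. A differentially expressed gene (DEG) had an adjusted p under 0.05 with edgeR's quasi-likelihood test and a change of more than 2-fold. All 12 cardiomyocyte markers were detected, with a summed level of 5804 to 9891 CPM over all libraries. The 10 fibroblast markers summed to more in every library, 30094 to 31384 CPM with vehicle and 44786 to 45881 CPM with β-SITO, although fibroblasts had been depleted. Most of these sums came from the collagen genes Col1a1, Col1a2 and Col3a1 (Col1a2 named after its value was seen). Their means were 9099.6, 6799.6 and 10421.5 CPM with vehicle and 12196.6, 10215.3 and 18849.8 CPM with β-SITO. The fibroblast sums are therefore not a measure of the number of fibroblasts. Mural, endothelial, macrophage and epicardial markers were also detected in every library, so transcripts typical of several cell types were present. In such bulk samples, more cells of a type and more RNA per cell cannot be told apart.

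Of the 10 genes, 9 had every HO + β-SITO library above every HO + Vehicle library, a pattern found for 34.8% of all tested genes. In the same direction 8 of the 10 passed the DEG threshold, against 12.8% of all tested genes, and none passed in the other direction, against 10.1%. Nothing is read from these counts, since the choice of the genes drew on the same comparison. The median log2FC of the 10 genes was 1.95, from 0.03 for Notch2 to 6.44 for Heyl, and the median over all tested genes was -0.01.

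**Figure D1:**
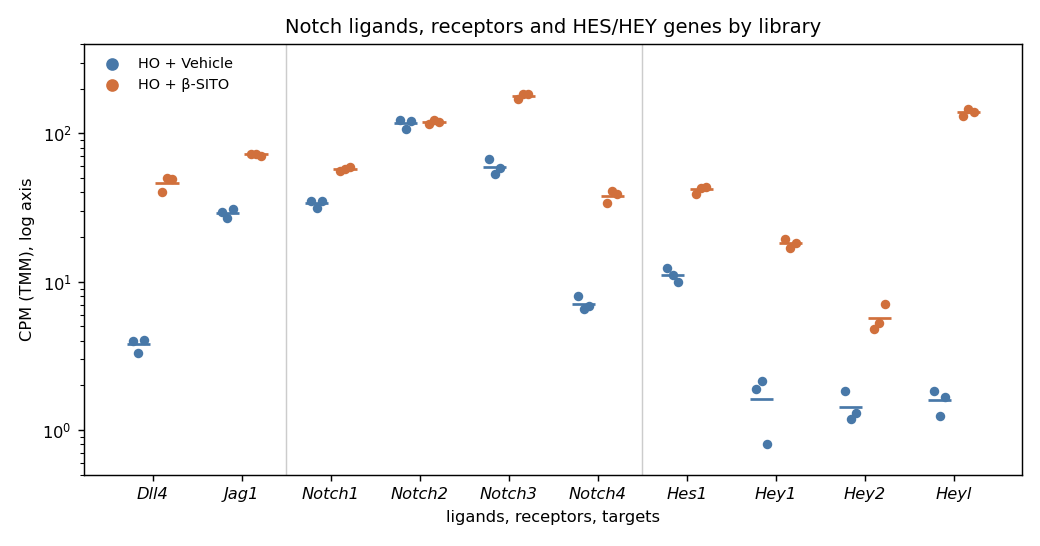
CPM (log axis) of the 10 genes in each library, with the mean of each group as a line (n = 3). The groups are apart for every gene but Notch2, and the widest gap is that of Heyl, from 1.25 to 1.83 CPM in the HO + Vehicle libraries and from 131.1 to 145.0 CPM in the HO + β-SITO libraries.

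Among the ligands, Dll4 differed more than Jag1. Dll4, a Delta-like ligand best known from arteries and from the tip cells of vascular sprouts, lies on chromosome 2 from 119156265 to 119166443 on the plus strand (GRCm39). It had 3.98, 3.32 and 4.03 CPM in V1 to V3 and 40.1, 50.03 and 48.9 CPM in T4 to T6. T4 was the lowest of the HO + β-SITO libraries and was still 9.95-fold above the highest HO + Vehicle library. The means were 3.78 ± 0.394 and 46.3 ± 5.45 CPM (SD, n = 3), with log2FC 3.61 ± 0.12 (SE), or 12.2-fold. The lncRNA Gm14207, annotated over Dll4 on the opposite strand, had 1 count in each HO + Vehicle library and 23 to 31 counts in the HO + β-SITO libraries, against 780 to 940 counts of Dll4. Whether strand was used in the counting is not stated in the sources used here, so reads of this pair may not be fully separated.

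Jag1, a Jagged ligand that is also used between endothelial cells and smooth muscle, lies on chromosome 2 from 136923376 to 136958564 on the minus strand. Its values were 29.5, 26.8 and 30.7 CPM in V1 to V3 and 72.7, 72.8 and 70.6 CPM in T4 to T6. The HO + β-SITO libraries lay close together and apart from the HO + Vehicle libraries, with log2FC 1.31 ± 0.07 (SE), or 2.49-fold. Per kilobase of merged exons, Jag1 stood at 4.97 ± 0.344 and Dll4 at 0.980 ± 0.102 CPM/kb in the HO + Vehicle group (SD, n = 3). In the HO + β-SITO group they stood at 12.4 ± 0.218 and 12.0 ± 1.42 CPM/kb, and their libraries overlapped.

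The 4 receptors ranged from no visible difference to a 5.31-fold one. Notch4, a receptor largely restricted to endothelium, lies on chromosome 17 from 34783242 to 34807477 on the plus strand. It had 8.02, 6.52 and 6.82 CPM in V1 to V3 and 33.9, 40.8 and 38.9 CPM in T4 to T6, log2FC 2.41 ± 0.11 (SE). As for Dll4, T4 was the lowest of the HO + β-SITO libraries, well above all HO + Vehicle libraries. Notch3, the receptor of mural cells, lies on chromosome 17 from 32339794 to 32385826 on the minus strand. It had 66.8, 53.3 and 58.4 CPM in V1 to V3 and 170.6, 183.7 and 184.6 CPM in T4 to T6, log2FC 1.59 ± 0.08 (SE), or 3.02-fold. Notch3 was the receptor with the highest CPM in the HO + β-SITO group and came after Notch2 in the HO + Vehicle group.

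Notch1, which acts in endothelium, endocardium and many other tissues, lies on chromosome 2 from 26347915 to 26406675 on the minus strand. It had 35.0, 31.2 and 35.2 CPM in V1 to V3 and 55.7, 57.7 and 59.1 CPM in T4 to T6. The groups did not overlap, and the log2FC of 0.77 ± 0.07 (SE), or 1.70-fold, stayed under the 2-fold threshold. Notch2, a widely expressed receptor, lies on chromosome 3 from 97920843 to 98057677 on the plus strand. Its values were 123.4, 107.1 and 120.2 CPM in V1 to V3 and 116.4, 123.2 and 119.5 CPM in T4 to T6. The libraries of the groups were interleaved, with log2FC 0.03 ± 0.06 (SE), which spans -0.09 to 0.16 at 2 SE on either side. Genes annotated over Notch1, Notch2, Notch3 and Notch4 held at most 14 counts in a library, and no other gene was annotated over Jag1, Hes1, Hey1, Hey2 or Heyl.

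The 4 target genes were all higher in the HO + β-SITO group. Heyl, a HEY family repressor known from vascular smooth muscle, lies on chromosome 4 from 123127349 to 123143668 on the plus strand. It had 29, 20 and 27 counts in V1 to V3, or 1.83, 1.25 and 1.67 CPM, and 2551, 2579 and 2688 counts in T4 to T6, or 131.1, 145.0 and 139.9 CPM. The smallest ratio of any HO + β-SITO library to any HO + Vehicle library was 71.6. The log2FC was 6.44 ± 0.11 (SE), or 87.0-fold, which placed Heyl at position 9 of 14799 tested genes ordered from the highest. From the summed counts of each group, 76 and 7818, the ratio was 87.3 with an exact 95% interval of 69.7 to 110.9, which covers counting error only.

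Hey1, an arterial and endocardial target gene, lies on chromosome 3 from 8728419 to 8732316 on the minus strand. It had 1.89, 2.13 and 0.806 CPM in V1 to V3 and 19.5, 16.8 and 18.3 CPM in T4 to T6, log2FC 3.50 ± 0.19 (SE), or 11.3-fold. V3 stood below the other HO + Vehicle libraries with 13 counts against 30 and 34, and the 95% exact Poisson intervals of 13 (6.92 to 22.2 counts) and 34 (23.5 to 47.5 counts) did not overlap, while that of 30 (20.2 to 42.8 counts) overlapped both. Without V3 the log2FC of Hey1 was 3.20. Hey1 was also the one target whose highest HO + β-SITO value was in T4.

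Hes1, a target in very many cell types, lies on chromosome 16 from 29883202 to 29886614 on the plus strand. It had 12.4, 11.1 and 9.98 CPM in V1 to V3 and 39.2, 43.1 and 43.6 CPM in T4 to T6, log2FC 1.91 ± 0.09 (SE), or 3.76-fold. Its group values did not overlap. Hey2, a regulator of ventricular identity that also acts in arteries, lies on chromosome 10 from 30708355 to 30718797 on the minus strand and was the lowest of the 4 targets in the HO + β-SITO group. It had 1.83, 1.19 and 1.30 CPM in V1 to V3 and 4.78, 5.28 and 7.08 CPM in T4 to T6, log2FC 1.98 ± 0.22 (SE), or 3.95-fold. With 19 to 29 counts per HO + Vehicle library, Hey2 had the widest SE of the 10 genes.

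**Figure D2:**
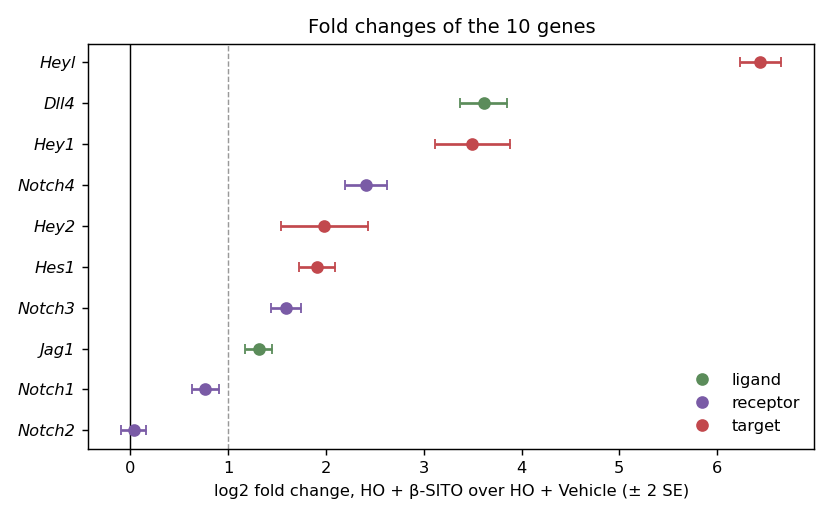
Log2FC of the HO + β-SITO group over the HO + Vehicle group for each gene, with bars of 2 SE on either side (3 libraries a group) and a dashed line at 2-fold. Heyl stands alone at 6.44, Dll4 and Hey1 overlap near 3.6 and 3.5, and Notch1 and Notch2 lie under the line.

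In the order of their log2FCs, with intervals of 2 SE on either side, Heyl was separate from all others. Dll4 and Hey1 overlapped, and so did each neighbouring pair in the run Notch4, Hey2, Hes1, Notch3 and Jag1. Notch1 lay below this run and Notch2 below Notch1. The order of the genes by level per kilobase was also different in the 2 groups. In the HO + Vehicle group, the levels per kilobase ran from Notch2 (10.8 CPM/kb) through Notch3 (7.35), Hes1 (5.47) and Jag1 (4.97), which overlapped, to Notch1 (2.38). Below these came Dll4 (0.980) and Notch4 (0.883), which overlapped, and then Hey1 (0.493), Hey2 (0.314) and Heyl (0.310), of which each overlapped the next. In the HO + β-SITO group, Heyl was first with 27.1 CPM/kb. Notch3 (22.2) and Hes1 (20.6) overlapped, Dll4 (12.0) overlapped both Jag1 (12.4) and Notch2 (11.1), which were apart from each other, and the lowest were Hey1 (5.57), Notch4 (4.70), Notch1 (4.04) and Hey2 (1.24), which were separate from each other.

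These differences changed the make-up of each role. Per kilobase, Notch2 made up 50.6 ± 1.02% of the 4 receptors in the HO + Vehicle group and 26.4 ± 0.575% with β-SITO (SD, n = 3), with overlapping levels. Notch3 went from 34.2 ± 1.26% to 52.8 ± 0.354%, Notch4 from 4.11 ± 0.201% to 11.2 ± 0.593%, and Notch1 from 11.1 ± 0.413% to 9.61 ± 0.217%. Thus Notch2 was the leading receptor transcript per kilobase in every HO + Vehicle library and Notch3 in every HO + β-SITO library. Of the ligand pair, Dll4 made up 16.4 ± 0.581% and 49.2 ± 3.24%. Of the 4 targets, Hes1 made up 83.2 ± 1.68% in the HO + Vehicle group and 37.8 ± 0.639% in the HO + β-SITO group, and Heyl 4.74 ± 0.99% and 49.7 ± 0.965%.

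**Figure D3:**
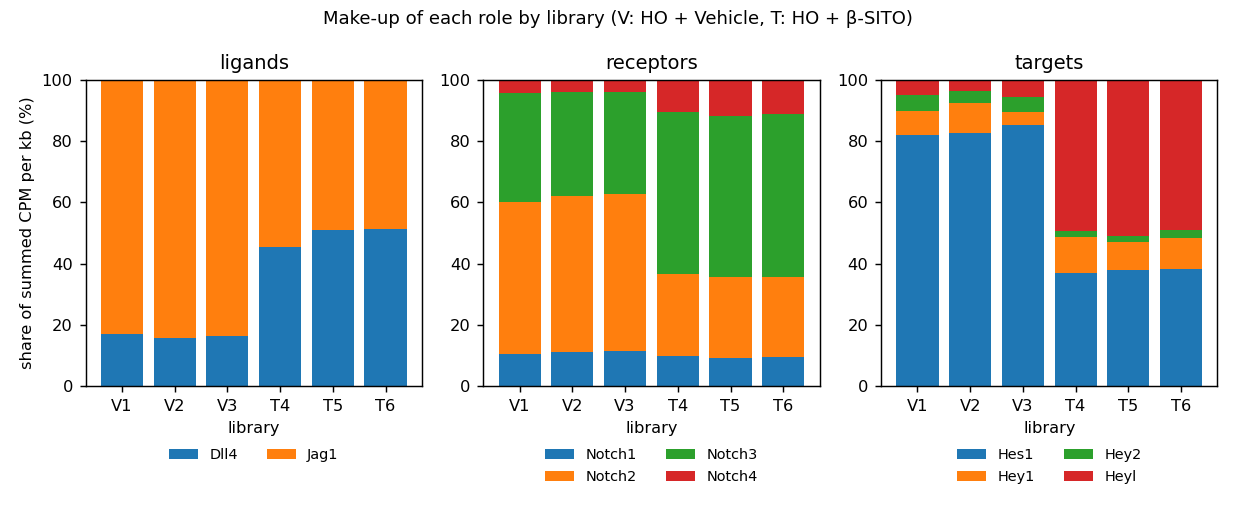
Share (%) of the summed CPM per kilobase that each gene took among the ligands, receptors and targets, for each library. Heyl takes 3.71% to 5.69% of the target transcripts in V1 to V3 and 48.9% to 50.8% in T4 to T6, and the leading receptor is Notch2 in V1 to V3 and Notch3 in T4 to T6.

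The receptors as a sum stood at 19.5 to 23.2 CPM/kb in the HO + Vehicle libraries and at 40.0 to 43.2 CPM/kb in the HO + β-SITO libraries. For the ligands these sums were 5.46 to 6.31 and 22.9 to 25.5 CPM/kb. For the targets they were 5.76 to 7.42 against 51.9 to 55.9 CPM/kb. Thus the sum of the targets overlapped that of the ligands in the HO + Vehicle libraries and lay above that of the receptors in the HO + β-SITO libraries.

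Sequence upstream of the transcription start was available from RefSeq (build GRCm38.p6) for 7 of the 10 genes, not for Hes1, Hey1 and Heyl. The bases just after the start were found in a GENCODE transcript of the same gene for 6 of the 7, Notch3 being the exception. The 250 bases before the start were searched on both strands for TGGGAA, the core of the RBPJ site, which was present in 21.5% of 27025 such windows, and for GTGGGAA, which contains it and was present in 5.41%. Of the 7 windows only that of Hey2 held either, with 1 match to the longer form on the strand opposite to the gene at positions -207 to -201 from the start. The E-box CACGTG, which HES and HEY proteins are known to bind in some promoters and which 6.05% of the windows held, was found in none. A match of letters is not a binding site, and no match says only that these letters are missing from this window. A few of the windows are printed, the one with the match (chr10:30842784-30843033, minus strand), that of Dll4 (chr2:119325534-119325783, plus strand), which had the largest difference among the genes with an entry, and that of Notch2 (chr3:98013288-98013537, plus strand), whose groups overlapped. They are written 5′ to 3′ along the gene, and capitals mark the RBPJ core, which reads TTCCCA here because it lies on the strand opposite to the gene.
Hey2: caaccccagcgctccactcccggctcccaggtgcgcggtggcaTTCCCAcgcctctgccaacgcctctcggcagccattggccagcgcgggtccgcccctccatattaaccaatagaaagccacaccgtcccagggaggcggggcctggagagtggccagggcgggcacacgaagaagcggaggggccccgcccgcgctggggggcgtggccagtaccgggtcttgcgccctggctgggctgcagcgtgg
Dll4: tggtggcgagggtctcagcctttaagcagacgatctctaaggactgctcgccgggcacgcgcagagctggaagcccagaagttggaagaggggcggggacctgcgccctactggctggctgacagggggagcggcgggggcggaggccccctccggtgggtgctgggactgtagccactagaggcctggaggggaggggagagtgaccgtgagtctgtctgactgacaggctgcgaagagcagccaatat
Notch2: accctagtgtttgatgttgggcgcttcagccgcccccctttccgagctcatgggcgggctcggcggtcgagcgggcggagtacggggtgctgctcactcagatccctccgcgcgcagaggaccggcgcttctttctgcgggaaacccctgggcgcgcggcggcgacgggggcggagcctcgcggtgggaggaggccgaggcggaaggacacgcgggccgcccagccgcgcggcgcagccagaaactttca

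To place the 10 genes in their pathway, 60 further genes of Notch signaling were listed by role, and 52 of them were tested. Of these, 8 were DEGs higher (15.4%, against 12.8% of all tested genes) and 4 DEGs lower (7.69%, against 10.1%) in the HO + β-SITO group, so these remaining genes were near the background. Their median log2FC was 0.15. The 10 genes had been set apart from the pathway with this comparison known. The shares of the remaining genes depend on that choice, and nothing is read from them about the pathway as a whole. The other 40 tested genes were not DEGs, and the 12 DEGs were spread over several roles.

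Among the enzymes that modify the receptor, the Fringe glycosyltransferases, which tune the response of Notch receptors to Delta-like or Jagged ligands, differed among themselves. Lfng rose from 4.13 ± 0.111 to 15.3 ± 1.72 CPM (SD, n = 3), log2FC 1.88 ± 0.13 (SE; edgeR, adjusted p = 2.88e-09). Mfng rose from 1.27 ± 0.373 to 8.80 ± 0.576 CPM, log2FC 2.78 ± 0.19 (SE; edgeR, adjusted p = 3.41e-09). For Rfng the log2FC was 0.18 ± 0.10 (SE; edgeR, adjusted p = 0.132). Pofut1 and Poglut1, which add the first sugars to the receptor, were not DEGs.

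The feedback inhibitor Nrarp, itself a known Notch target, had 4, 3 and 3 counts in V1 to V3 and 58, 62 and 62 counts in T4 to T6. Its ratio was 15.4 with an exact 95% interval of 8.21 to 32.8 for counting error (edgeR, adjusted p = 2.19e-08). The ubiquitin ligase genes of the Deltex family went both ways. Dtx1 rose (log2FC 1.33 ± 0.31, SE; edgeR, adjusted p = 0.00155), on 11 to 24 counts per HO + Vehicle library. Dtx3l, which is also known as the partner of PARP9 in the interferon response, fell from 312.0 ± 28.9 to 25.9 ± 3.59 CPM (log2FC -3.59 ± 0.10, SE; edgeR, adjusted p = 4.13e-14), and Dtx4 fell from 255.1 ± 8.15 to 124.0 ± 2.83 CPM (log2FC -1.04 ± 0.06, SE; edgeR, adjusted p = 2.14e-10). The call for Dtx4 was lost without V1, and those for Dtx1 and Dtx4 when the test was made against a 2-fold change (glmTreat).

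The proteases that cut the receptor did not move together either, with 2 of 10 DEGs higher and 2 lower. Adam17, which also sheds TNF-α, fell from 233.0 ± 9.95 to 101.6 ± 4.63 CPM (log2FC -1.20 ± 0.06, SE; edgeR, adjusted p = 8.89e-11). Adam10, the protease of the ligand-bound receptor, had log2FC 0.23 ± 0.06 (SE; edgeR, adjusted p = 0.00236), under 2-fold. The γ-secretase gene Psen2 fell, a call lost with glmTreat (log2FC -1.13 ± 0.07, SE; edgeR, adjusted p = 8.66e-10). The γ-secretase subunit genes Aph1b and Aph1c rose by 1.44 ± 0.09 and 2.89 ± 0.22 on the log2 scale (SE; edgeR, adjusted p = 1.67e-09 and 1.34e-08), and since they are close copies of each other, the division of reads between them is uncertain. Aph1a, the other member of that family, was not a DEG.

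In the nucleus, Rbpj stood at 210.4 ± 12.1 CPM with vehicle and at 164.2 ± 10.9 CPM with β-SITO (SD, n = 3), log2FC -0.36 ± 0.07 (SE; edgeR, adjusted p = 0.000178) in the direction opposite to Hes1 and the HEY genes. Of the Mastermind-like coactivators, Maml3 rose from 3.97 ± 0.241 to 10.7 ± 0.416 CPM (log2FC 1.43 ± 0.12, SE; edgeR, adjusted p = 7.07e-08), Maml2 had 0.49 ± 0.08 (edgeR, adjusted p = 3.80e-05) and Maml1 0.06 ± 0.07 (edgeR, adjusted p = 0.450) on the log2 scale. Among 11 genes of corepressors, Tle2 of the Groucho family was the only DEG (log2FC 1.62 ± 0.17, SE; edgeR, adjusted p = 4.69e-07).

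The other ligands showed no counterpart to Dll4. Dll1 had 3.11 ± 0.295 against 1.73 ± 0.481 CPM (SD, n = 3), log2FC -0.85 ± 0.23 (SE; edgeR, adjusted p = 0.00409), and was a DEG lower in 1 of the leave-one-out fits, that without T5. Jag2 had 0.57 ± 0.22 on the log2 scale (SE; edgeR, adjusted p = 0.0303), and Dll3 had no count in any library. Of the ubiquitin ligases that make ligands active by endocytosis, 0 of 4 were DEGs with edgeR or with DESeq2. All 4 were at an unadjusted p under 0.05, as were 10287 of all 14799 tested genes. Neurl1a, named after its value was seen, lay just under 2-fold (log2FC 0.99) and became a DEG without V1, V3, T4 or T5. Mib1 had log2FC 0.17 ± 0.06 (SE; edgeR, adjusted p = 0.0182). Outside the 4 target genes, only Hes6 of the HES and HEY family was tested (log2FC -0.01 ± 0.10, SE; edgeR, adjusted p = 0.906), and Hes5, a target best known from neural progenitors, had no count in any library.

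**Figure D4:**
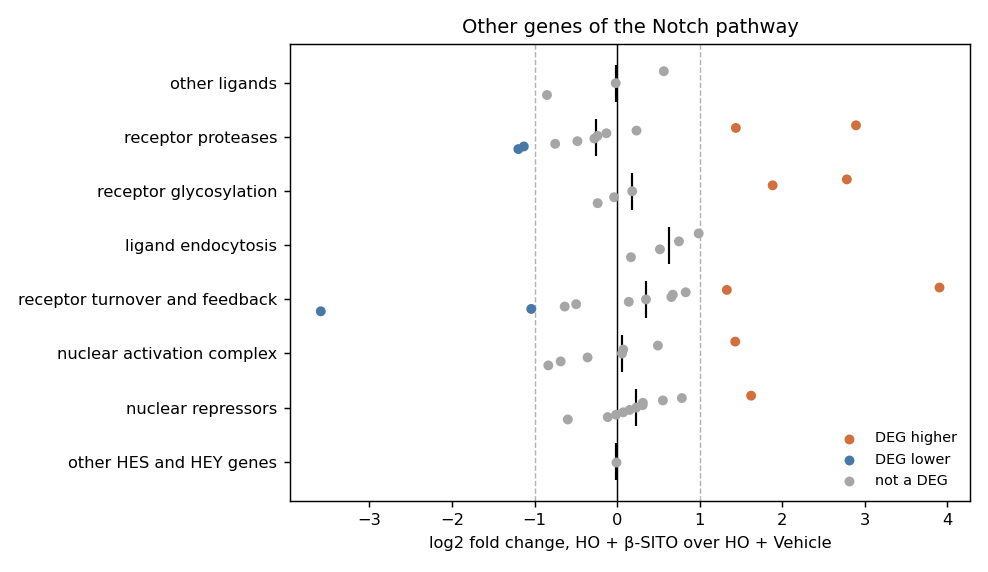
Log2FC of each tested gene of the Notch pathway outside the 10 genes, by role, with the median of each list as a vertical bar and dashed lines at 2-fold (3 libraries a group). The 8 DEGs higher and 4 DEGs lower are spread over 5 of the 8 lists, and every list median lies within 2-fold.

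Marker genes of the cells in which these Notch genes are usually found were also different between the groups. Of 14 endothelial markers, 13 were DEGs higher and 1, Flt1, was a DEG lower, with a median log2FC of 2.02. Over all tested genes, 12.8% were DEGs higher and 10.1% DEGs lower. Cdh5, the cadherin of endothelial junctions, had 78.4 ± 8.88 against 280.9 ± 17.3 CPM (SD, n = 3) and Vwf had the largest difference, with log2FC 4.09 ± 0.14 (SE; edgeR, adjusted p = 6.78e-13). Flt1, which encodes VEGF receptor 1 and was the most abundant of the list, fell from 532.7 ± 48.5 to 103.7 ± 8.86 CPM. The summed level of the list was 714.5 to 837.6 CPM in the HO + Vehicle libraries and 1062 to 1123 CPM in the HO + β-SITO libraries, and 235.0 to 271.5 against 964.2 to 1009 CPM without Flt1, which was set apart after its value was seen. None of the 14 was at 0 in either group. The log2FCs of Dll4 (3.61) and Hey1 (3.50) lay above all of these 13 but Vwf, and that of Notch4 (2.41) lay within their range of 1.05 to 4.09.

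Of 12 mural markers, 8 were DEGs higher and none lower, against 12.8% and 10.1% of all tested genes. Their median log2FC was 1.51, and their summed level was 1178 to 1287 CPM with vehicle and 2089 to 2397 CPM with β-SITO. The most abundant, Acta2 and Pdgfrb, had log2FCs of 0.99 ± 0.07 and 0.62 ± 0.06 (SE), and the largest, 2.77 ± 0.39, was that of the smooth muscle gene Cnn1. With means of 561.7 and 528.2 CPM, Acta2 and Pdgfrb made up most of the sum with vehicle. The paper used α-SMA, the product of Acta2, to follow fibroblast activation, so this sum is not specific to mural cells. The log2FC of Notch3 (1.59) was within the range of these markers (0.61 to 2.77), and that of Heyl (6.44) was above it. Of 6 arterial markers, 2 were DEGs higher, Bmx and Sox17 (the latter named after its value was seen), and the median log2FC was 0.88. The part of these markers in the values of the Notch genes was not tested.

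The lists of the remaining cell types also moved in part, beside 12.8% of all tested genes that were DEGs higher and 10.1% lower. Fibroblast markers gave 0 DEGs of 10 with edgeR and 0 with DESeq2, and their median was 0.50. Of these 10, 9 were at an unadjusted p under 0.05, as were 10287 of all 14799 tested genes. The 9 were 7 higher and 2 lower, also after adjustment. Macrophage markers gave 7 DEGs higher and 2, Fcgr1 and Cd14, lower of 10 (median 1.26). Epicardial markers gave 2 higher of 5, Upk1b and Wt1 (median 0.66), and cardiomyocyte markers 3 higher of 12, Myl7, Myh7 and Nppa (median 0.28). At an adjusted p under 0.05 without the fold cutoff, 5 cardiomyocyte markers were higher and 2 lower. The lower ones were Tnnt2 (log2FC -0.47 ± 0.09, SE; edgeR, adjusted p = 0.000347) and Pln (-0.42 ± 0.14, SE; edgeR, adjusted p = 0.0141). Cd14, Wt1, Myh7, Nppa, Tnnt2 and Pln are named after their values were seen. The HO + β-SITO libraries were not alike in these lists. T4 had a summed cardiomyocyte level of 5804 CPM against 9758 and 9891 CPM in T5 and T6, the lowest endothelial and mural sums of its group and the highest macrophage sum (3100 CPM). The endothelial sums were close, 1062 CPM in T4 against 1123 and 1090 CPM in T5 and T6. Single endothelial markers went both ways, with Vwf highest and Cdh5 lowest in T4. Among the 10 genes, T4 was the lowest library of its group for all but Jag1 and Hey1. How many of all tested genes were lowest in T4 was not counted, so nothing is read from this. Without T4, the log2FCs of Dll4, Notch4 and Heyl were 3.71, 2.48 and 6.48.

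**Figure D5:**
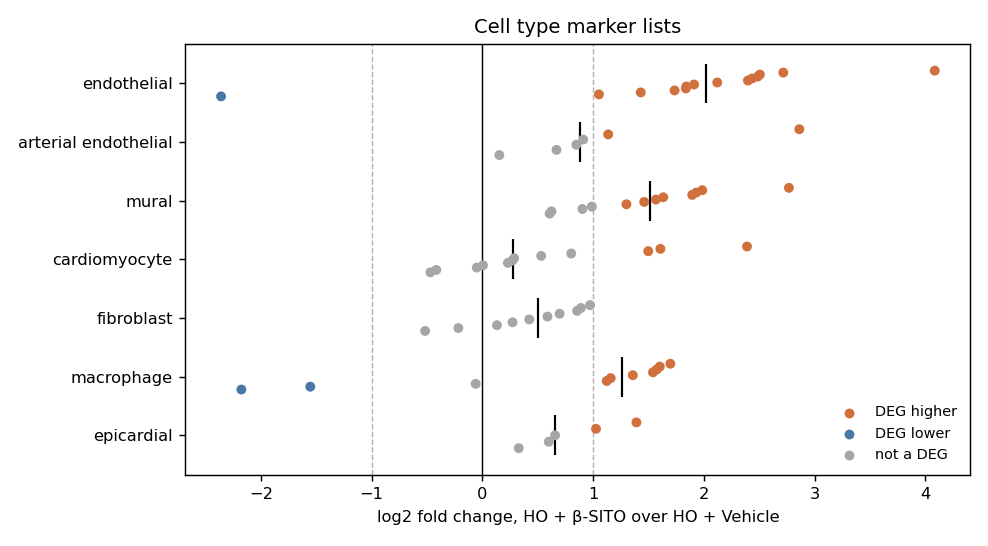
Log2FC of each gene on the cell type marker lists, with the median of each list as a vertical bar and dashed lines at 2-fold (3 libraries a group). In the endothelial list 13 of 14 genes lie beyond 2-fold on the right and Flt1 at -2.36 on the left, and the medians of the cardiomyocyte and fibroblast lists are 0.28 and 0.50.

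The genes with the pattern most like that of Heyl were found among 10991 others with a mean of at least 100 counts, as the smallest root mean square distance between log2 CPM values centred over the 6 libraries. Among the nearest were Angptl7 (distance 0.367) and Nxpe5 (0.477). Both had few counts in the HO + Vehicle libraries, 2 to 3 and 3 to 6 respectively, against 20 to 29 counts of Heyl, so their distances depend on the prior count of 2 in the log2 CPM. With 6 libraries in 2 groups, genes with a similar gap between the groups come out as most alike.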

How the data were processed

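RNA was measured in 6 libraries of hypoxic NMCMs, 3 a group by the sample labels. Per the submitters' processing notes, reads were checked with FastQC, aligned with HISAT2 to GRCm39 and counted with featureCounts, and the authors deposited raw counts per gene for each library, with no normalization. Versions, annotation release and strand setting are not given in the sources used here. The labels and the paper name different library kits. From these counts, filterByExpr, TMM factors and the quasi-likelihood test were run in edgeR 4.0.16 (R 4.3.3) with the group as the only term, Benjamini-Hochberg adjustment over all 14799 tested genes, and the thresholds for DEGs given above, which the study also used. DESeq2 1.42.0 was run as an alternative. The SE of a log2 fold change is its size divided by the root of the F statistic. The biological coefficient of variation was 6.52%. Replicates differed by more than sampling noise (chi-square over degrees of freedom of 2.02 to 9.86 for pairs in a group).

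The table has no gene length, so CPM/kb used the merged exons of GENCODE vM21, matched by gene identifier. That annotation is on GRCm38, and lengths may differ from those counted, which scales both groups alike. Orders and shares between genes do depend on these lengths, which merge the exons of all annotated transcripts of a gene. Coordinates are from the deposited table, and promoter sequence is from RefSeq on GRCm38.p6. The fit was tested on simulated data. The 10 genes, the pathway and marker lists and the rule for named genes were chosen with earlier results of these data known. By that rule the text names the 10 genes, the DEGs of each pathway list (at most 6), a fixed set of pathway genes, for marker lists the 2 highest by mean CPM and the largest log2 fold change, and the genes most like Heyl. Some results under this rule are not reported here. Other genes named (Pofut1, Poglut1, Aph1a, Dll3 and those marked in the text) were chosen after their values were seen. Fold-change cutoff, test, normalization, filter and each library were varied in turn. The exact permutation test was not used on the 10 genes because this comparison had chosen them. For any gene, 3 libraries against 3 cannot give a p under 0.1 with it.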

Additional observations from a re-analysis of the deposited data

How the results depend on the processing

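The 10 genes were chosen with this comparison known, so their calls in this section are a description. Nothing is read from the stability of these calls. Leaving out each library in turn kept 8 of the 10 genes as DEGs higher and 0 lower. The log2 fold changes were then between 6.30 and 6.58 for Heyl, 3.53 and 3.71 for Dll4, 3.20 and 3.76 for Hey1, and -0.02 and 0.10 for Notch2. The DEGs of the other pathway genes then numbered 8 to 9 higher and 4 to 6 lower, and those of all genes 3467 to 3610. Without the fold cutoff, 9892 genes passed in place of 3380, among them 25 pathway genes higher and 16 lower, and Notch1 made 9 of the 10 genes. Only 2 pathway genes were lower, in place of 4, with glmTreat, with upper quartile normalization and with library size only. These were Adam17 and Dtx3l, and the calls for Psen2 and Dtx4 were lost. Dtx1 was also lost with glmTreat. Library size only and upper quartile normalization moved the median log2 fold change of all genes by 0.15 and 0.14, and those of the 10 genes by about as much, without changing a call among these 10. With DESeq2, RLE normalization, no filter on low counts and a mean CPM of at least 1, the 10 genes kept their calls. No paired analysis was possible because the groups share no replicate number. Depth limits Hey1, Hey2 and Heyl in the HO + Vehicle group, with 13 to 34 counts a library, and β-SITO cannot be told apart from a batch if the groups were handled separately.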
